A study of Mus musculus with 6 samples.

Results

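The 10 genes described here belong to the integrated stress response: the transcription factor gene Atf4, the related factor genes Atf3, Atf5 and Ddit3, the feedback genes Trib3 and Ppp1r15a, and the effector genes Asns, Chac1, Sesn2 and Gdf15. They were listed by name, for their known roles and with earlier results of these data known, and were found by NCBI Gene identifier among the 27179 genes of the count tables. The mRNA was measured in 3 lines of mouse embryonic fibroblasts, untreated, in 2 libraries per line that came from separate RNA preparations. All 3 lines carry the same knockout, Cry1-/-, Cry2-/-, Per1-/-, Per2-/-, Nr1d1-/- and Nr1d2-/-, and the parental line with this genotype is called CPN-/-. CPN-/-CRY1 and CPN-/-CRY2 are derivatives of it that express mouse Cry1 or Cry2 from a viral vector. Each derivative was grown from a selected colony, so that the expression of the introduced gene and any other property of that colony cannot be told apart. The 2 comparisons of a CRY line with CPN-/- share the CPN-/- libraries, and a further comparison set the CRY lines directly against each other.

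In the integrated stress response, kinases that sense amino acid shortage, unfolded protein in the endoplasmic reticulum, double-stranded RNA or loss of heme phosphorylate the initiation factor eIF2alpha. General translation then slows, while the Atf4 mRNA, whose upstream open reading frames hold back its translation in unstressed cells, is translated more. ATF4 pairs with other bZIP proteins on composite C/EBP-ATF response elements and switches on genes for amino acid uptake and synthesis, tRNA charging, redox balance and, under lasting stress, cell death. Because this switch works largely through translation, the Atf4 mRNA level is not a measure of ATF4 protein, which was not measured in these data.

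The core of the C/EBP-ATF response element, searched as TGATGNAA on both strands, was found in the promoter windows of 4 of the 10 genes, Atf3, Chac1, Trib3 and Asns. The windows were those of RefSeq for GRCm38.p6, from 250 bases before to 50 bases after each gene start, and the table held all 10 genes with 12 windows. Of its 32851 promoters, 1304 (3.97%) held the same letters. The windows around the match are shown for all 4 genes that hold one, and the capitals mark the match. These 4 genes fell in CPN-/-CRY1, and whether that fall is linked to the match was not tested. Ppp1r15a was lower there as well and its window does not hold these letters. The matches in Atf3, Chac1 and Trib3 read on the other strand, and the one in Trib3 lies 15 bases into the transcript.
Atf3, chr1:191183396-191183483, reverse strand: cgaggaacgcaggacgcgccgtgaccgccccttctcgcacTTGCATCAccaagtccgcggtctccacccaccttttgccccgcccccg
Chac1, chr2:119351009-119351096, forward strand: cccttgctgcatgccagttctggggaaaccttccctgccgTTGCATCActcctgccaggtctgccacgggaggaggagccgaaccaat
Trib3, chr2:152344028-152344057, reverse strand: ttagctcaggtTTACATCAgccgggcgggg
Asns, chr6:7693210-7693272, reverse strand: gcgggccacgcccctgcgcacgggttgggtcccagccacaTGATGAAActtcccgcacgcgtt
Atf3 and Chac1 thus share the 8 letters of their match. The cAMP response element, searched as TGACGTCA, was found in 1.79% of all promoters and among these genes only in that of Ppp1r15a, 12 bases before its start.
Ppp1r15a, chr7:45526269-45526320, reverse strand: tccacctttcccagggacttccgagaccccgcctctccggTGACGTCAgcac
The E-box, searched as CACGTG and known as the binding motif of the clock activators CLOCK and BMAL1 on which CRY proteins act, was found in 7.15% of all promoters and only in the second of the Gdf15 windows. None of the 3 motifs was found in the windows of Atf4, Atf5, Ddit3 and Sesn2. These matches describe letters in the windows and not bound sites. Stretches outside the windows, such as introns further into a gene, were not searched, so that a gene without a match can hold one there.

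The libraries held 25957409 to 36106949 counts, with TMM normalisation factors of 0.991 to 1.01, and levels are given as CPM, which are the counts divided by the normalised library size. Of the 11 fibroblast markers listed, 8 had at least 1 CPM in every library, while Thy1 and Lum were under 1 CPM in all. Every listed epithelial, immune, endothelial and neural marker was under 1 CPM in every library. The summed level of 3 listed muscle markers, nearly all of it Acta2 and with Myod1 under 1 CPM, was 1159 and 1428 CPM in CPN-/-, 4231 and 4100 CPM in CPN-/-CRY1 and 1843 and 2057 CPM in CPN-/-CRY2, and its part in the results was not tested. In such bulk samples, fewer cells of a type and less RNA per cell cannot be told apart. Reads of both introduced genes were counted in all 3 lines, the parental line labelled as a knockout of them included. Cry1 was 125 and 115 CPM in CPN-/-, 165 and 190 CPM with CPN-/-CRY1, and 51.0 and 48.3 CPM with CPN-/-CRY2. Cry2 was 136 and 129 CPM in CPN-/-, 50.7 and 51.7 CPM with CPN-/-CRY1, and 349 and 351 CPM with CPN-/-CRY2. Each was thus highest in its own line, with log2 changes against CPN-/- of 0.57 for Cry1 (BH-adjusted p = 0.013) and 1.40 for Cry2 (BH-adjusted p = 5.8e-04), and lower in the other line than in CPN-/-, by −1.27 for Cry1 (BH-adjusted p = 0.0015) and −1.37 for Cry2 (BH-adjusted p = 3.4e-04). Whether the reads in CPN-/- come from outside the deleted parts was not tested. BH-adjusted p-values are those of the quasi-likelihood test of edgeR after Benjamini-Hochberg adjustment, and SE is the standard error of a log2 change. The log2 difference between the libraries of a line had an SD across genes of 0.44 in CPN-/-, 0.23 in CPN-/-CRY1 and 0.24 in CPN-/-CRY2. In CPN-/- the level in replicate 1 minus that in replicate 2 rose with transcript length, with Spearman's rho at 0.66 over 12478 genes that are no independent replicates.

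All 10 genes passed the filter on low counts and were tested among 14069 genes, and calls of lower or higher levels needed a BH-adjusted p under 0.05. In CPN-/-CRY1, 5 of the 10 genes were lower than in CPN-/-, namely Chac1, Atf3, Trib3, Asns and Ppp1r15a, and 1, Atf5, was higher. The same comparison called 24.3% of all tested genes, 13.1% lower and 11.2% higher. In CPN-/-CRY2, 0 of the 10 genes were called against CPN-/-, where 6.66% of all tested genes were, 4.08% lower and 2.58% higher. At an unadjusted p under 0.05 there were 5 in CPN-/-CRY2, against a background of 24.4%, and DESeq2's Wald test called 1, Ppp1r15a. The same unadjusted limit held 7 of the 10 genes in CPN-/-CRY1, beside 40.3% of all tested genes, and 6 between the CRY lines, beside 30.8%. Between the CRY lines, CPN-/-CRY1 had the lower level of 3 genes, Chac1, Trib3 and Asns, and the higher level of Atf5, where 16.3% of all tested genes were called, 8.57% lower and 7.72% higher. The median log2 change of the 10 genes against CPN-/- was −0.60 for CPN-/-CRY1 and −0.16 for CPN-/-CRY2, beside −0.01 over all tested genes in both. It was −0.33 between the CRY lines, beside 0.00 over all tested genes.

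**Figure D1:**
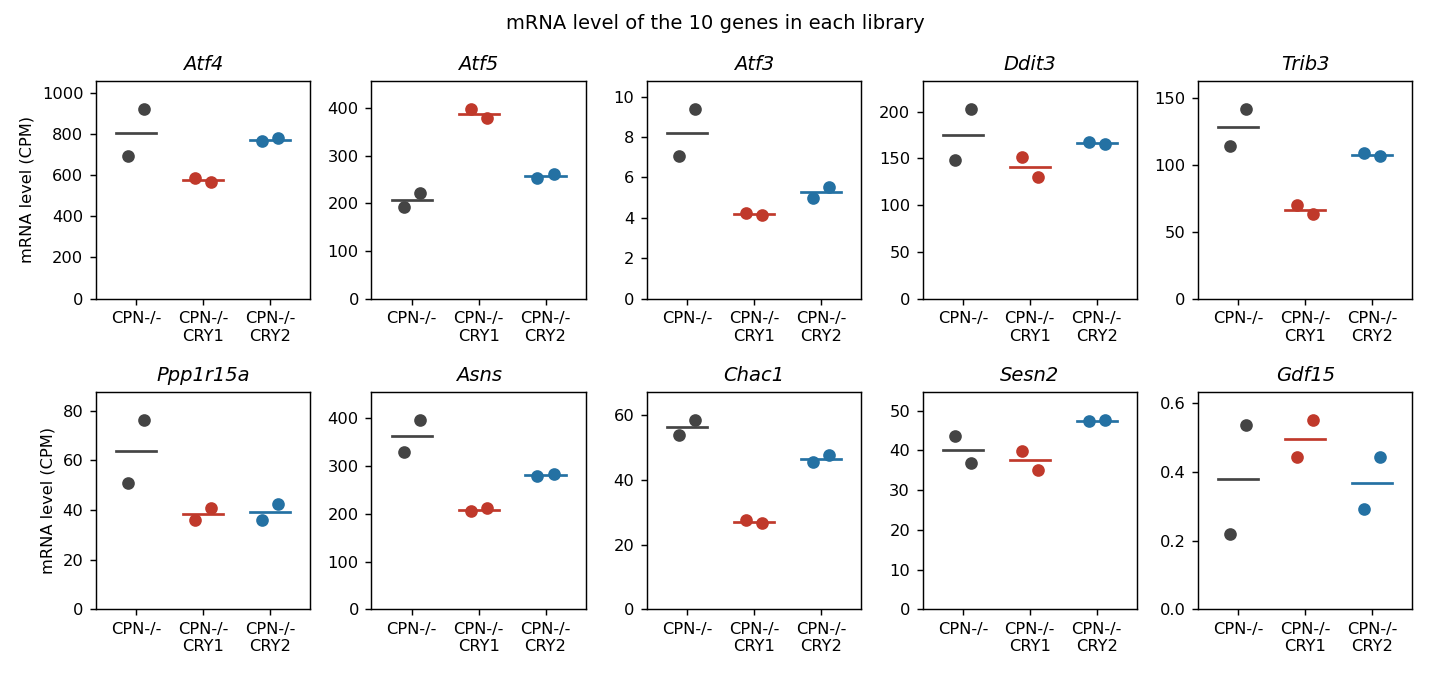
Levels of the 10 genes in each library, in CPM on linear axes that start at 0, by line. Points are the 2 libraries of a line and bars their mean; Chac1, Trib3, Asns and Atf3 were lowest in both CPN-/-CRY1 libraries, and Atf5 was highest there.

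Taken per length of the longest annotated transcript, Atf4 was the most abundant of the 10 mRNAs in every line. Its level per length was 399 ± 79.0 CPM per kb (SD, n = 2) in CPN-/-, 286 ± 6.24 CPM per kb in CPN-/-CRY1 and 382 ± 4.32 CPM per kb in CPN-/-CRY2. In CPN-/- it was followed by Ddit3 with 181 ± 39.1, Asns with 179.9 ± 23.7, Atf5 with 114 ± 11.99 and Trib3 with 63.0 ± 9.39 CPM per kb, of which Ddit3 and Asns overlapped. Chac1 with 34.4 ± 1.92, Ppp1r15a with 22.6 ± 6.36, Sesn2 with 11.6 ± 1.37, Atf3 with 4.13 ± 0.828 and Gdf15 with 0.245 ± 0.145 CPM per kb came next. In CPN-/-CRY1 the order was the same except that Atf5, with 214 ± 7.26 CPM per kb, stood above Ddit3 with 145 ± 15.7 and Asns with 103 ± 2.36. In CPN-/-CRY2 Atf5 with 142 ± 2.73 and Asns with 139.7 ± 1.78 CPM per kb overlapped, as did Ppp1r15a with 14.0 ± 1.60 and Sesn2 with 13.7 ± 0.0532. With the union of exons as the length, the places of Ddit3, Asns and Atf5 in CPN-/- and CPN-/-CRY2 changed, as did those of Ppp1r15a and Sesn2 in CPN-/-CRY2.

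Atf4 (NCBI Gene identifier 11911, forward strand of chromosome 15, 80255184 to 80257545) has its position from GRCm38, the mm10 build, as have the genes that follow. The CPN-/- libraries held 692 and 918 CPM of it, with 586 and 568 CPM in CPN-/-CRY1 libraries, and 765 and 777 CPM in CPN-/-CRY2. Both CPN-/-CRY1 libraries were thus the lowest of the 6, while the CPN-/-CRY2 libraries lay between those of CPN-/-. The log2 change in CPN-/-CRY1 was −0.48 against CPN-/- (95% interval −0.82 to −0.14) and missed the threshold with a BH-adjusted p of 0.052. With DESeq2's Wald test it passed (−0.47, BH-adjusted p = 0.017). In CPN-/-CRY2 it was −0.06 (95% interval −0.40 to 0.28, BH-adjusted p = 0.80). Between the CRY lines it was −0.42 (95% interval −0.76 to −0.08, BH-adjusted p = 0.099).

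The size of the Atf4 difference from CPN-/- depended on which CPN-/- library was used. Without CPN-/- replicate 1 the log2 change was −0.67 for CPN-/-CRY1 and −0.25 for CPN-/-CRY2, and without CPN-/- replicate 2 the values were −0.26 and 0.16. All of the 10 genes but Sesn2, whose transcript is the longest, were higher in replicate 2 of CPN-/- than in replicate 1. With the trend of each library with transcript length removed, the change in Atf4 was −0.27 for CPN-/-CRY1 (BH-adjusted p = 0.047) and 0.14 for CPN-/-CRY2 (BH-adjusted p = 0.31). The log2 difference between the CRY lines was −0.41 in that fit, with a BH-adjusted p of 0.010. Over the 17 alternatives tried, the BH-adjusted p of Atf4 lay between 1.8e-10 and 0.28 in CPN-/-CRY1, between 0.0031 and 0.95 in CPN-/-CRY2, and between 2.0e-07 and 0.42 for the CRY lines against each other.

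The genes around Atf4 differed in the same direction in CPN-/-CRY1. Over the 529 other tested genes of chromosome 15, the median log2 change against CPN-/- was −0.36 in CPN-/-CRY1, with quartiles of −0.68 and −0.07, and 226 of the 243 called genes were lower. Called genes made up 45.9% of the chromosome, beside 24.3% of all tested genes. In CPN-/-CRY1, Atf4 was 0.12 below the chromosome's median on the log2 scale, and 40.3% of the chromosome's other tested genes had a lower fold change. Among the 182 genes within 5 Mb the median was −0.44, from which Atf4 differed by −0.04. In CPN-/-CRY2 the chromosome's median was 0.05, and between the CRY lines it was −0.43, which Atf4 exceeded by 0.01. Whether the difference in Atf4 is more than that of its chromosome was not tested.

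**Figure D2:**
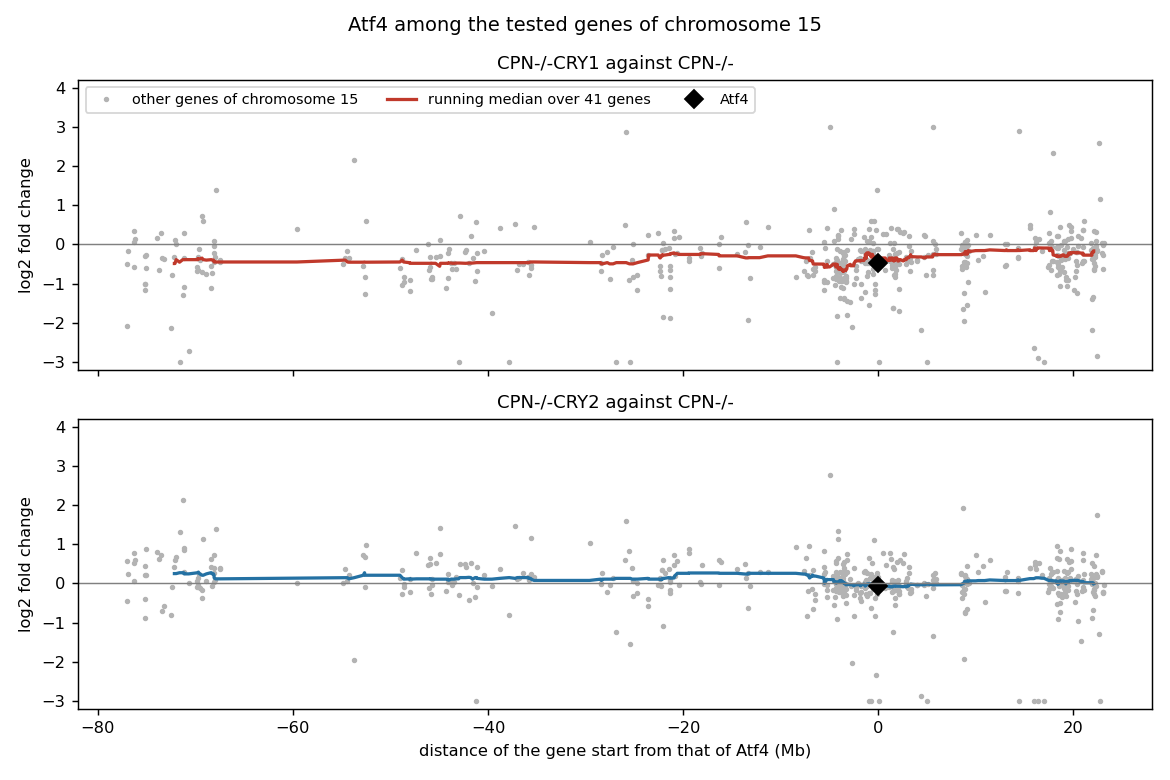
Log2 change of each tested gene of chromosome 15 against the distance of its start from that of Atf4 in Mb, with Atf4 as a diamond and a running median over 41 genes; values beyond 3 in size are drawn at 3. The running median lay below 0 along the chromosome in CPN-/-CRY1, where the median of the other genes was −0.36, and close to 0 in CPN-/-CRY2, where it was 0.05.

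The other 9 genes lie on chromosomes whose median over all tested genes was not shifted to that extent. The medians against CPN-/- in CPN-/-CRY1 were 0.11 on chromosome 1 with Atf3, 0.03 on chromosome 2 with Trib3 and Chac1, 0.02 on chromosome 4 with Sesn2 and −0.13 on chromosome 6 with Asns. They were −0.01 on chromosome 7 with Atf5 and Ppp1r15a, 0.01 on chromosome 8 with Gdf15 and −0.05 on chromosome 10 with Ddit3. Relative to the median of the other genes of its chromosome, the log2 change in CPN-/-CRY1 was −1.08 for Chac1, −1.07 for Atf3, −0.98 for Trib3, −0.72 for Ppp1r15a, −0.67 for Asns and 0.91 for Atf5. Relative to the median within 5 Mb, it was −1.07 for Chac1, −0.98 for Atf3 and −0.92 for Trib3. It was −0.56 for Ppp1r15a, −0.72 for Asns and 1.08 for Atf5. The 106 genes within 5 Mb of Atf5 and those of Ppp1r15a had medians of −0.18 and −0.17 in CPN-/-CRY1. In CPN-/-CRY2 both of these medians were −0.16.

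Atf5 (NCBI Gene identifier 107503, reverse strand of chromosome 7, 44812256 to 44816658) encodes a bZIP factor whose mRNA, like that of Atf4, carries upstream open reading frames, and which acts in the mitochondrial unfolded protein response. It was the gene of the 10 that was higher in a CRY line. Its level was 192 and 223 CPM in CPN-/-, 397 and 379 CPM in CPN-/-CRY1, and 254 and 261 CPM in CPN-/-CRY2, so that the libraries of the 3 lines did not overlap. Against CPN-/- it was 1.87-fold higher in CPN-/-CRY1, a log2 change of 0.91 (SE 0.11, BH-adjusted p = 0.0024). In CPN-/-CRY2 the log2 change was 0.31 (95% interval 0.06 to 0.57, BH-adjusted p = 0.15). With the length trend removed the value in CPN-/-CRY2 was 0.53, with a BH-adjusted p of 0.0012, in a range over the alternatives of 9.8e-06 to 0.54. The direct comparison of the CRY lines gave 0.59 (SE 0.11, BH-adjusted p = 0.013). The exons of Atf5 overlap those of Il4i1 and Nup62 on the other strand by 82 bases. The libraries were made with a stranded kit, but the strand setting of the counting is not given in the sources used here.

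Atf3 (identifier 11910, reverse strand of chromosome 1, 191170296 to 191183333) encodes a stress-induced bZIP factor that mostly represses transcription and can dampen the response. Its level was low, at 7.04 and 9.36 CPM in CPN-/-, 4.26 and 4.15 CPM in CPN-/-CRY1, and 5.00 and 5.52 CPM in CPN-/-CRY2. Both CRY lines lay below both CPN-/- libraries. Atf3 was 1.94-fold lower in CPN-/-CRY1 than in CPN-/-, with a log2 change of −0.96 (SE 0.18, BH-adjusted p = 0.011). The log2 change in CPN-/-CRY2 was −0.64 (95% interval −1.05 to −0.22, BH-adjusted p = 0.090), and between the CRY lines it was −0.32 (95% interval −0.75 to 0.11, BH-adjusted p = 0.29).

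Ddit3 (identifier 13198, forward strand of chromosome 10, 127290793 to 127296291) encodes CHOP, the bZIP factor linked to cell death under lasting stress. Its level was 149 and 202 CPM in CPN-/-, 151 and 129.7 CPM in CPN-/-CRY1, and 167 and 166 CPM in CPN-/-CRY2, and the CPN-/- libraries overlapped both CRY lines. No comparison called it, with log2 changes of −0.32 in CPN-/-CRY1 (95% interval −0.70 to 0.06, BH-adjusted p = 0.18) and −0.08 in CPN-/-CRY2 (95% interval −0.46 to 0.30, BH-adjusted p = 0.77). Its longest transcript, at 969 bases, is the shortest of the 10, and with the length trend removed the log2 change in CPN-/-CRY1 was 0.00, rounded, with a BH-adjusted p of 0.99, in a range over the alternatives of 1.8e-07 to 0.99. Between the CRY lines it was −0.24 (95% interval −0.62 to 0.14, BH-adjusted p = 0.37). Its exons overlap those of Mars (Mars1 in the count tables), on the other strand, by 68 bases. In GENCODE another entry named Ddit3 overlaps them on the same strand by 105 bases.

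**Figure D3:**
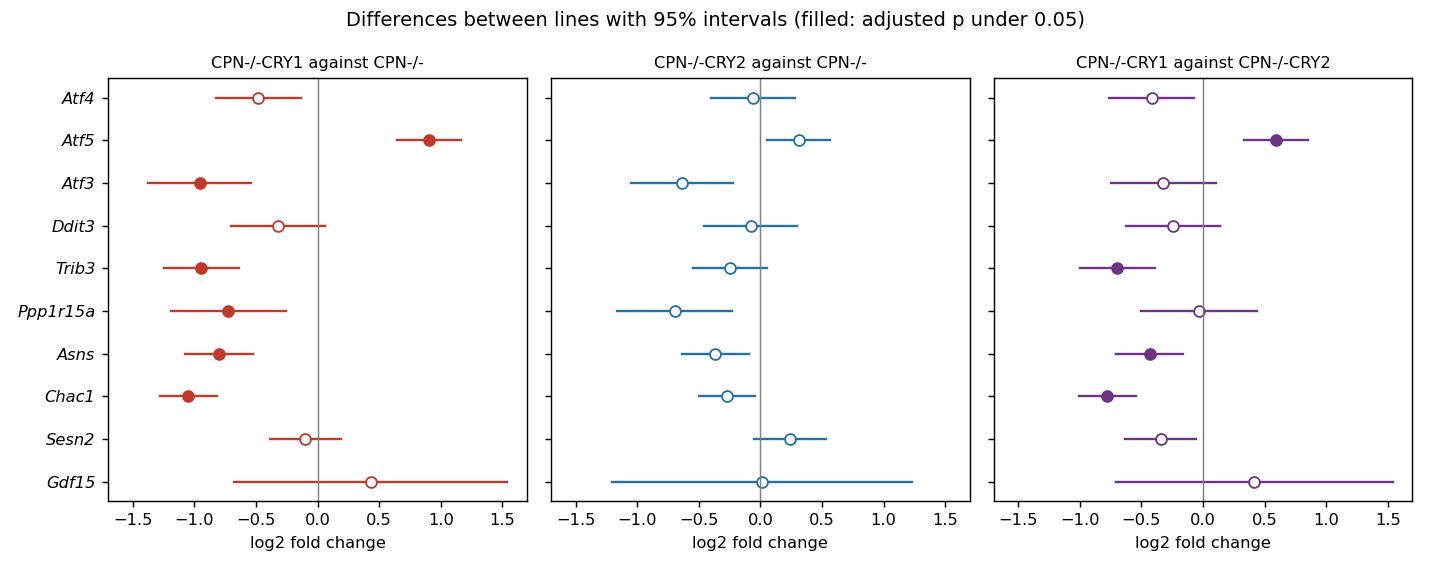
Log2 changes of the 10 genes in the 3 comparisons, with 95% intervals from edgeR's fit and filled points where the BH-adjusted p was under 0.05. Filled points stand for 6 genes in CPN-/-CRY1 against CPN-/-, 0 in CPN-/-CRY2 against CPN-/- and 4 between the CRY lines.

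Trib3 (identifier 228775, reverse strand of chromosome 2, 152337425 to 152344060) encodes a pseudokinase that is induced by ATF4 and CHOP and restrains them in turn. Its level was 114 and 141 CPM in CPN-/-, 69.9 and 62.9 CPM in CPN-/-CRY1, and 109 and 106 CPM in CPN-/-CRY2, so that the CPN-/-CRY1 libraries stood well below the other 4. Trib3 was 1.92-fold lower in CPN-/-CRY1 than in CPN-/-, with a log2 change of −0.94 (SE 0.13, BH-adjusted p = 0.0040). It was also 1.62-fold lower than in CPN-/-CRY2 (log2 change −0.70, SE 0.13, BH-adjusted p = 0.014). In CPN-/-CRY2 against CPN-/- the log2 change was −0.25 (95% interval −0.55 to 0.05, BH-adjusted p = 0.27), with −0.39 without replicate 1 of CPN-/- (BH-adjusted p = 6.7e-06), −0.08 without replicate 2 (BH-adjusted p = 0.46) and −0.05 with the length trend removed (BH-adjusted p = 0.70). The call against CPN-/- was lost without replicate 2 of CPN-/-CRY1, where the value was −0.87 with a BH-adjusted p of 0.064, the highest over the alternatives, of which the lowest was 1.7e-16.

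Ppp1r15a (identifier 17872, reverse strand of chromosome 7, 45522917 to 45526268) encodes GADD34, the stress-induced subunit that brings protein phosphatase to eIF2alpha and so ends the response. Its level was 50.9 and 76.2 CPM in CPN-/-, 36.1 and 40.7 CPM in CPN-/-CRY1, and 36.0 and 42.4 CPM in CPN-/-CRY2. It was the gene of the 10 with the closest levels in the CRY lines, which overlapped and lay below both CPN-/- libraries. Its log2 change was −0.73 for CPN-/-CRY1 (SE 0.20, BH-adjusted p = 0.039) and, for CPN-/-CRY2, −0.70 (SE 0.20, BH-adjusted p = 0.098), and −0.03 between them (95% interval −0.50 to 0.44, BH-adjusted p = 0.94). The CPN-/-CRY1 call was lost when the 4 libraries of the comparison alone were fitted (BH-adjusted p = 0.082), and DESeq2's Wald test called Ppp1r15a in CPN-/-CRY2 as well (BH-adjusted p = 0.017). Over the alternatives the BH-adjusted p lay between 1.4e-11 and 0.22 for CPN-/-CRY1 and between 6.9e-11 and 0.51 for CPN-/-CRY2. The values rested on the spread of the CPN-/- libraries. Without replicate 1 of CPN-/- they were −0.99 and −0.96, and without replicate 2 they were −0.40 and −0.37.

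Chac1 (identifier 69065, forward strand of chromosome 2, 119351242 to 119354326) encodes an enzyme that degrades glutathione. Its level was 54.0 and 58.5 CPM in CPN-/-, 27.5 and 26.8 CPM in CPN-/-CRY1, and 45.5 and 47.7 CPM in CPN-/-CRY2, with no overlap between lines. The difference between CPN-/-CRY1 and CPN-/- was the largest of the 10 genes, 2.07-fold lower in CPN-/-CRY1, with a log2 change of −1.05 (SE 0.10, BH-adjusted p = 9.2e-04). It was also 1.71-fold lower than in CPN-/-CRY2 (log2 change −0.78, SE 0.10, BH-adjusted p = 0.0033). In CPN-/-CRY2 against CPN-/- the log2 change was −0.27 (95% interval −0.50 to −0.04, BH-adjusted p = 0.15).

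Asns (identifier 27053, reverse strand of chromosome 6, 7675165 to 7693209) encodes asparagine synthetase, a classical target of ATF4 under amino acid shortage. Its level was 329 and 397 CPM in CPN-/-, 205 and 212 CPM in CPN-/-CRY1, and 279 and 284 CPM in CPN-/-CRY2, and the lines again did not overlap. Asns was 1.74-fold lower in CPN-/-CRY1 than in CPN-/- (log2 change −0.80, SE 0.12, BH-adjusted p = 0.0050). The difference between the CRY lines, −0.43, just passed the threshold (SE 0.12, BH-adjusted p = 0.047), and DESeq2's size factors in place of TMM ended that call (BH-adjusted p = 0.051). In CPN-/-CRY2 against CPN-/- the log2 change was −0.37 (95% interval −0.64 to −0.09, BH-adjusted p = 0.12).

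Sesn2 (identifier 230784, reverse strand of chromosome 4, 132492804 to 132510456) encodes a leucine sensor that restrains the growth kinase complex mTORC1 and is a target of p53 as well as of ATF4. Its level was 43.5 and 36.8 CPM in CPN-/-, 39.9 and 35.0 CPM in CPN-/-CRY1, and 47.3 and 47.6 CPM in CPN-/-CRY2. Its CPN-/-CRY1 libraries overlapped those of CPN-/-, while its CPN-/-CRY2 libraries were the highest of the 6. It was not called, with log2 changes of −0.10 in CPN-/-CRY1 (95% interval −0.39 to 0.19, BH-adjusted p = 0.56) and 0.24 in CPN-/-CRY2 (95% interval −0.05 to 0.53, BH-adjusted p = 0.27). Between the CRY lines it was −0.34 (95% interval −0.63 to −0.05, BH-adjusted p = 0.11), and 5 of the 17 alternatives called it, with BH-adjusted p over all of them between 5.5e-05 and 0.53.

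Gdf15 (identifier 23886, reverse strand of chromosome 8, 70629393 to 70632470) encodes a secreted stress cytokine that is also a p53 target. It was barely detected, with 7 and 14 counts in the CPN-/- libraries, 16 and 17 counts in those of CPN-/-CRY1 and 8 and 12 counts in those of CPN-/-CRY2. At this depth the 95% interval of its log2 change spanned −0.68 to 1.54 for CPN-/-CRY1 and −1.20 to 1.23 for CPN-/-CRY2, so that a rise by 1 lay within both.

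With 1 library of a line left out, a line rests on 1 library and is assumed to vary like the others. Without either replicate of CPN-/-CRY1, the calls against CPN-/- were lost for Atf3 (BH-adjusted p of 0.092 without replicate 1 and 0.10 without replicate 2) and for Asns (0.074 and 0.068), and that of Ppp1r15a was lost without any single library of a CRY line. In the direct comparison of the CRY lines, the calls of Atf5, Trib3 and Asns were lost without any single library of a CRY line, with BH-adjusted p of up to 0.14, 0.15 and 0.30. That of Chac1 was lost without replicate 1 (0.060) or 2 (0.065) of CPN-/-CRY1 or replicate 2 of CPN-/-CRY2 (0.059). The lowest BH-adjusted p over the alternatives for these differences between the CRY lines ranged from 7.5e-13 for Trib3 to 1.9e-08 for Asns. No called gene changed direction. With 1 CPN-/- library left out, the spread rests on the CRY lines alone, and the counts of calls rose throughout. In CPN-/-CRY2 against CPN-/-, 9 of the 10 genes, all but Gdf15, were then called without replicate 1 of CPN-/-, where 8046 of 14257 tested genes were, and 4 without replicate 2, where 3185 of 14418 were. The 4 were Atf5, Chac1, Asns and Ppp1r15a.

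Across the 10 genes, the libraries of CPN-/-CRY1 and CPN-/- did not overlap for 7, of which 6 were lower in CPN-/-CRY1. The share over all tested genes was 66.9%, with 34% lower and 32.9% higher. In CPN-/-CRY2 against CPN-/- the libraries did not overlap for 7 genes, 5 of them lower, where the share over all genes was 55.1%, with 27.2% lower and 28% higher. Of the CRY lines set against each other there were 8 such genes, 7 of them lower in CPN-/-CRY1, beside 73.3% of all tested genes, 36.9% lower and 36.4% higher. Without the exons on the other strand being told apart, 3 of the 10 genes could share reads with a neighbour, Atf5, Ddit3 and Ppp1r15a, the last by 12 bases. Ddit3 also overlaps an entry of the same name on its own strand, which a strand setting would not tell apart. No annotated gene of another name held a stretch of at least 150 bases with 95% identity to any of the 10.

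The pattern of Atf4 over the 6 libraries was most like those of Phf5a, a splicing factor gene, with a Pearson correlation of log2 CPM of 0.999, of Cdk4, a cell cycle kinase gene, with 0.998, and of Ruvbl1, a gene for a DNA helicase-like ATPase, with 0.996. These were the highest among 12102 genes averaging 50 counts or more, and the points share their 6 libraries. Phf5a lies on chromosome 15 as Atf4 does, Cdk4 on chromosome 10 and Ruvbl1 on chromosome 6.

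Upstream of Atf4, the eIF2alpha kinase genes did not fall with the targets. All 4 were tested, and Eif2ak2, whose product PKR senses double-stranded RNA and which is induced by interferon, and Eif2ak4, whose product GCN2 senses uncharged tRNA, were higher in CPN-/-CRY1. Against CPN-/-, 11.2% of all tested genes were higher in that line. Eif2ak2 was 74.5 and 47.9 CPM in CPN-/-, 121 and 113 CPM in CPN-/-CRY1, and 82.8 and 83.7 CPM in CPN-/-CRY2, and its log2 change in CPN-/-CRY1 was 0.93 (SE 0.19, BH-adjusted p = 0.017). Eif2ak4 was 50.02 and 38.1 CPM in CPN-/-, 60.0 and 62.9 CPM in CPN-/-CRY1, and 56.0 and 57.0 CPM in CPN-/-CRY2, with a log2 change of 0.48 in CPN-/-CRY1 (SE 0.14, BH-adjusted p = 0.047). Eif2ak1 and Eif2ak3, for the heme and endoplasmic reticulum kinases, had log2 changes of 0.01 and 0.03 there. The alternatives, removal of the length trend among them, were not read for the kinase genes or for the lists that follow. In CPN-/-CRY2 edgeR called 0 of the 4 kinase genes against CPN-/-, beside 6.66% of all tested genes. At an unadjusted p under 0.05 there was 1 of them, beside 24.4%. Of the 12 genes for subunits of eIF2, of its exchange factor eIF2B and of the eIF2alpha phosphatases, edgeR called 0 in any comparison, while 1 in CPN-/-CRY1 and 2 in CPN-/-CRY2 against CPN-/- and 2 between the CRY lines had an unadjusted p under 0.05.

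The list of bZIP partners of ATF4 held 13 tested genes of 14, and 3 were lower in each CRY line against CPN-/-, with 0 higher. The 13 include Cebpz, whose product is not a bZIP protein and which was not called, with log2 changes of −0.08 and 0.01. The share of all tested genes that were lower was 13.1% for CPN-/-CRY1 and 4.08% for CPN-/-CRY2. Cebpd was 45.8 and 59.3 CPM in CPN-/-, 25.5 and 27.8 CPM in CPN-/-CRY1, and 14.9 and 17.9 CPM in CPN-/-CRY2, log2 changes of −0.98 (BH-adjusted p = 0.0070) and −1.68 (BH-adjusted p = 0.0022). Cebpb, whose product binds the composite element together with ATF4, had a log2 change of −0.79 in CPN-/-CRY1 (SE 0.15, BH-adjusted p = 0.012) and −0.55 in CPN-/-CRY2 (SE 0.15, BH-adjusted p = 0.087). Junb, an AP-1 subunit gene, had −1.22 in CPN-/-CRY2 (BH-adjusted p = 0.012) and −0.50 in CPN-/-CRY1 (BH-adjusted p = 0.087). The remaining called gene, Cebpa, named after its values were seen, had 18 and 11 counts in CPN-/-, 3 and 1 in CPN-/-CRY1 and 0 in both CPN-/-CRY2 libraries.

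Among the targets are the genes for serine, one-carbon, proline and transsulfuration enzymes. Of 10 tested genes out of 11, 7 were lower in CPN-/-CRY1 and 0 higher, with a median log2 change of −0.70, beside −0.01 over all tested genes. The share of all tested genes was 13.1% lower and 11.2% higher. In CPN-/-CRY2 1 of the 10 was lower, Cth, where 4.08% of all tested genes were, and the median of the 10 was −0.26. Mthfd1l, for a mitochondrial one-carbon enzyme, was 179 and 156 CPM in CPN-/-, 83.1 and 78.1 CPM in CPN-/-CRY1, and 128 and 126 CPM in CPN-/-CRY2. Its log2 change in CPN-/-CRY1 was −1.06 (SE 0.11, BH-adjusted p = 0.0012). Cth, for the transsulfuration enzyme cystathionine gamma-lyase, was 11.4 and 12.7 CPM in CPN-/- and 1.25 and 1.33 CPM in CPN-/-CRY1, and had 1 count in each CPN-/-CRY2 library. It lies on chromosome 3, whose median log2 change in CPN-/-CRY1 was −0.28. The other 5 genes lower in CPN-/-CRY1, Phgdh, Psph, Shmt2, Mthfd2 and Pycr1, had log2 changes from −1.01 to −0.63 and are named after their values were seen. In this line chromosomes 3 and 15 were shifted down, with medians of −0.28 and −0.36, and chromosomes 16 and 19 up, with 0.27 and 0.31. Outside chromosomes 3, 15, 16 and 19, which leaves out chromosomes shifted in either direction, 5 of 6 enzyme genes were lower.

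The cytosolic aminoacyl-tRNA synthetase genes, which charge tRNAs with amino acids, were all tested, and 7 of the 20 fell in CPN-/-CRY1 and 1, Wars, rose, with a median of −0.27. In that comparison with CPN-/-, 13.1% of all tested genes were lower and 11.2% higher. In CPN-/-CRY2 edgeR called 0, beside 6.66% of all tested genes, and the median was −0.10. At an unadjusted p under 0.05 there was 1 of the 20, beside 24.4%. Gars, for glycine, was 443 and 528 CPM in CPN-/-, 306 and 307 CPM in CPN-/-CRY1, and 402 and 414 CPM in CPN-/-CRY2, with a log2 change of −0.66 in CPN-/-CRY1 (SE 0.11, BH-adjusted p = 0.0088). Tars, for threonine, had −0.77 (SE 0.10, BH-adjusted p = 0.0029) and lies on chromosome 15. Wars, for tryptophan, which is also induced by interferon, had 0.59 (SE 0.09, BH-adjusted p = 0.0061). Outside the shifted chromosomes 5 of 18 were lower and 1 higher.

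Of the 10 amino acid transporter genes, CPN-/-CRY1 had 2 lower and 0 higher, in a comparison where 13.1% of all tested genes were lower, so that the count is near the background. Slc7a11, for the cystine importer that feeds glutathione synthesis, was 51.5 and 35.2 CPM in CPN-/-, 6.97 and 7.98 CPM in CPN-/-CRY1, and 34.9 and 32.3 CPM in CPN-/-CRY2, a log2 change of −2.54 in CPN-/-CRY1 (SE 0.20, BH-adjusted p = 5.6e-04). It lies on chromosome 3. Slc6a9, for a glycine transporter, had −0.61 (SE 0.11, BH-adjusted p = 0.0099). In CPN-/-CRY2 Slc38a2, for a neutral amino acid transporter, was the single gene called and was higher, with 0.51 (SE 0.10, BH-adjusted p = 0.034). Of all tested genes, 2.58% were higher in CPN-/-CRY2 than in CPN-/-. Outside the shifted chromosomes 1 of 7 was lower in CPN-/-CRY1.

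Of 15 tested further targets out of 16, CPN-/-CRY1 had 7 lower and 1 higher, and CPN-/-CRY2 had 3 lower. The background over all tested genes was 13.1% falling and 11.2% rising for CPN-/-CRY1, with 4.08% falling for CPN-/-CRY2. The 15 targets had a median log2 change of −0.44 (CPN-/-CRY1) or −0.23 (CPN-/-CRY2). Several of them, Vldlr, Ndrg1, Ero1a, Ddit4 and Vegfa, are known hypoxia genes as well as ATF4 targets; Ddit4 and Vegfa were lower in CPN-/-CRY1 and are named after their values were seen. Vldlr, a lipoprotein receptor gene, had 351 and 209 counts in CPN-/- and between 8 and 13 in the libraries of the CRY lines, log2 changes of −4.72 (SE 0.28) and −4.61 (SE 0.29). Ndrg1, on chromosome 15, was 133 and 144 CPM in CPN-/-, 38.0 and 34.6 CPM in CPN-/-CRY1, and 88.1 and 90.7 CPM in CPN-/-CRY2, log2 changes of −1.93 (BH-adjusted p = 1.7e-04) and −0.64 (BH-adjusted p = 0.012). Ero1a, for an oxidase of the endoplasmic reticulum, had −1.24 (BH-adjusted p = 0.0012) and −0.85 (BH-adjusted p = 0.0093). Bbc3, which encodes the death factor PUMA and is also a p53 target, was the gene that was higher in CPN-/-CRY1, with 0.70 (SE 0.16, BH-adjusted p = 0.021). Outside the shifted chromosomes 5 of 13 were lower and 1 higher in CPN-/-CRY1.

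Set directly against CPN-/-CRY2, CPN-/-CRY1 had lower levels of 4 of the 10 tested enzyme genes, Mthfd1l, Shmt2, Mthfd2 and Pycr1. Of the 10 transporter genes 2 were lower, Slc7a11 and Slc6a9, and of the 20 synthetase genes 3, Tars, Mars1 and Sars. Over all tested genes, 8.57% were lower and 7.72% higher in this comparison. Among the 15 tested further targets 4 were lower, Ndrg1, Ddit4, Vegfa and Herpud1. Higher in CPN-/-CRY1 were Cth among the enzymes, against 1 count in each CPN-/-CRY2 library, and Wars among the synthetases. Of the 13 tested bZIP partners 2 were higher, Cebpd and Junb, with log2 changes of 0.70 (SE 0.16, BH-adjusted p = 0.030) and 0.72 (SE 0.18, BH-adjusted p = 0.042). Genes named here that were not named before were chosen after their values were seen.

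**Figure D4:**
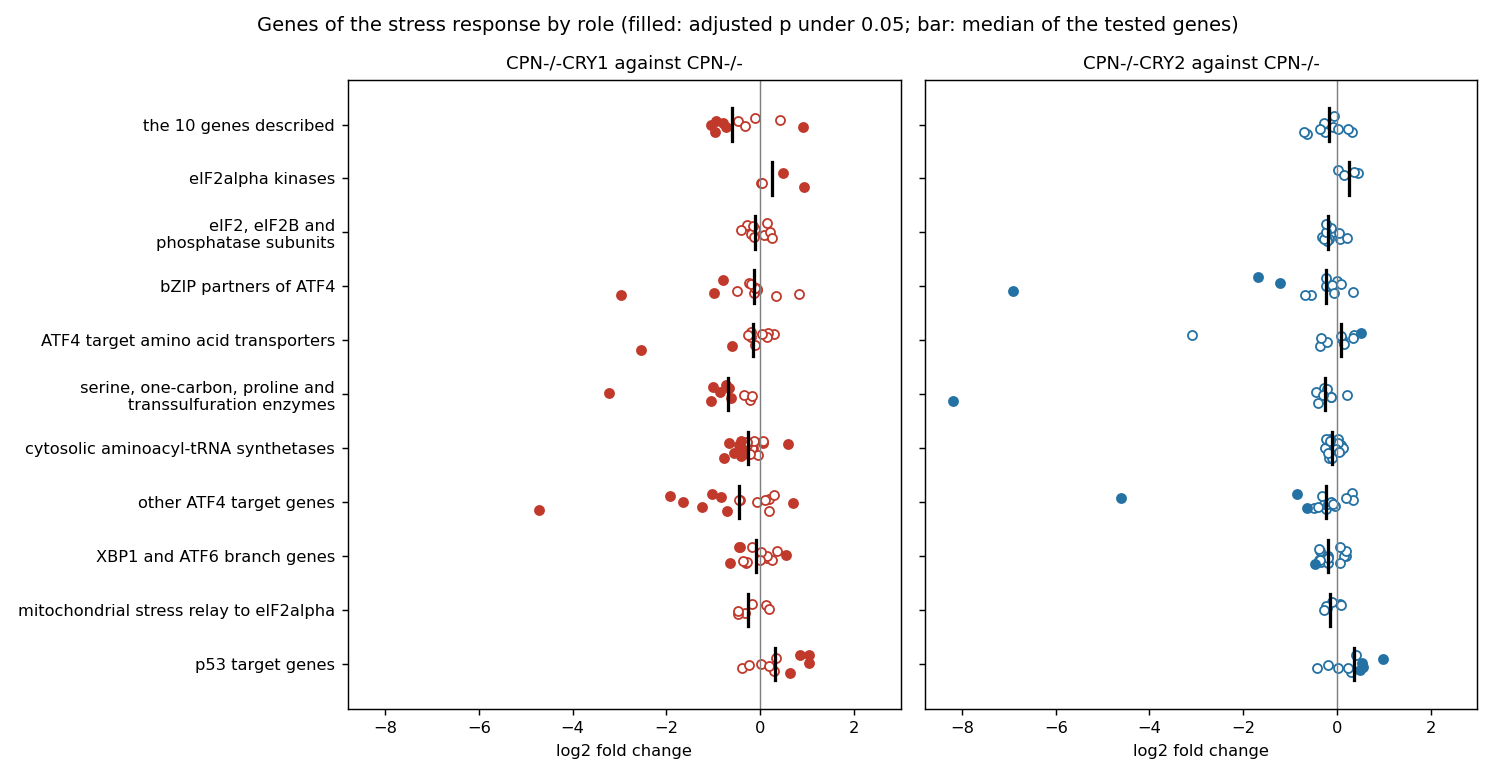
Log2 changes against CPN-/- of the 10 genes and of the tested genes of 10 further lists by role, filled where the BH-adjusted p was under 0.05, with a bar at each median. In CPN-/-CRY1 the median was −0.60 for the 10 genes, −0.70 for the serine, one-carbon, proline and transsulfuration enzymes and 0.25 for the eIF2alpha kinases; the value of Cth in CPN-/-CRY2, drawn farthest to the left, rests on 1 count in each CPN-/-CRY2 library.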

How the data were processed

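Per the labels, polyA RNA of untreated mouse embryonic fibroblasts was made into libraries with a stranded kit. The authors used STAR for mapping to mm10 and featureCounts for counting, and deposited whole, unnormalised counts of 27179 NCBI Gene identifiers for the 6 libraries. The annotation and the strand and multi-mapping settings of the counting are not given in the sources used here. The authors tested with DESeq2, which is an alternative here.

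Tests were run in edgeR 4.0.16 under R 4.3.3. The filterByExpr function (minimum count 10, minimum total 15) left 14069 genes, and TMM factors, robust quasi-likelihood dispersions and 1 model of cell line over the 6 libraries followed. For the 3 comparisons, two-sided quasi-likelihood p-values were adjusted after Benjamini and Hochberg across the 14069 genes (BH-adjusted p), with calls under 0.05. The SE is the absolute log2 fold change over the root of F, and 95% intervals use the t distribution with the fit's degrees of freedom. With 2 libraries per line, p-values measure the spread between RNA preparations of 1 culture line each, exact permutation cannot pass the threshold and outlying libraries cannot be identified. Steps were tested on simulated data.

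The members, the 10 further lists by role (117 genes, 114 tested) and the tests were chosen with earlier results of these data known. Named by rule from these lists were, for each comparison with CPN-/-, at most the 2 genes per direction with the largest log2 fold change if called and averaging 50 counts or more per library. Other list genes were named outside this rule, many after their values were seen. Of the genes most correlated with each member, those of Atf4 are given. Gene positions and promoters came from RefSeq (GRCm38.p6), and transcript lengths, strands and exons from GENCODE M21. Similar transcripts were searched with BLAST+ 2.17.0. Alternatives were DESeq2 1.42.0 with its Wald test, other size factors and filters, a replicate block, removal of each library's length trend (loess, span 0.5, 88.7% of tested genes with a length), fits of a comparison's own 4 libraries, a threshold of 0.01 and leaving out each library.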

Additional observations from a re-analysis of the deposited data

Results flagged for a closer look

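In 4 of the 10 genes the effects of the CRY lines against CPN-/- differed from each other, by the test of the CRY lines against each other in the same model, which called 16.3% of all tested genes. The log2 difference of CPN-/-CRY1 from CPN-/-CRY2 was −0.78 for Chac1, −0.70 for Trib3, −0.43 for Asns and 0.59 for Atf5. Of the 17 alternatives, the call was lost in 3 for Chac1, 5 for Trib3, 5 for Atf5 and 8 for Asns.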

How the results depend on the processing

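The calls of Chac1 and Atf5 in CPN-/-CRY1 against CPN-/- held under all 17 alternatives, while that of Trib3 was lost in 1, Asns in 2, Atf3 in 3 and Ppp1r15a in 6. Atf4, not called there, was called in 8, with log2 changes from −0.67 to −0.26 and BH-adjusted p from 1.8e-10 to 0.28. Between the CRY lines the call of Asns was lost in 8. The number of the 10 genes called against CPN-/- was 2 to 8 for CPN-/-CRY1 and 0 to 9 for CPN-/-CRY2 when leaving out each library, and 0 to 7 between the CRY lines. In CPN-/-CRY2 it was 1 with no filter, 1 with the replicate block, 1 with DESeq2's Wald test, 1 with the length trend removed and 2 with both block and length; between the CRY lines it was 1 at a BH-adjusted p under 0.01 and 7 with only the 4 libraries. The cause was not tested.

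Over all tested genes, the 3423, 937 and 2292 called in CPN-/-CRY1 and CPN-/-CRY2 against CPN-/- and between the CRY lines became 1184, 363 and 854 at a BH-adjusted p under 0.01, and 1798, 473 and 6838 with only the 4 libraries. With the length trend removed they became 5422, 2281 and 4259, and with the block as well 5450, 2322 and 4206. With at least 10 counts in every library CPN-/-CRY2 had 583. Leaving out each library gave 663 to 8980, 199 to 8046 and 475 to 6897. In CPN-/-CRY1 1579 genes were higher and 1844 lower, and 3064 and 2358 with the length trend removed; in CPN-/-CRY2 363 and 574 became 1394 and 887. Atf4 minus the chromosome 15 median was 0.037 in CPN-/-CRY1 with the length trend removed and 0.039 with the block as well, and from −0.33 to 0.10 when leaving out each library, with −0.27 to 0.067 for CPN-/-CRY2. Replicate numbers did not pair the libraries (correlations of −0.08, 0.14 and −0.03), and the replicate block gave 3458, 977 and 2188 calls. Gdf15, with at most 17 counts per library, was too low for a change to be read.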

Other observations

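Of 14 genes of the XBP1 and ATF6 branches, 1 was higher and 2 lower in CPN-/-CRY1 against CPN-/-, with a median log2 change of −0.08, and 1 was lower in CPN-/-CRY2, with a median of −0.19. The shares of all tested genes were 11.2% higher and 13.1% lower in CPN-/-CRY1, and 4.08% lower in CPN-/-CRY2. At an unadjusted p under 0.05 there were 8 of the 14 in CPN-/-CRY1, beside 40.3% of all tested genes, and 6 in CPN-/-CRY2, beside 24.4%. Set directly against CPN-/-CRY2, CPN-/-CRY1 had higher levels of 2 of the 14, Syvn1 (0.47) and Sdf2l1 (0.53), beside 7.72% of all tested genes. The genes lower in CPN-/-CRY1 were Creld2 (−0.64, on chromosome 15) and Pdia4 (−0.45), the higher one was Syvn1 (0.55), an ubiquitin ligase gene of the endoplasmic reticulum, and Xbp1 itself was lower in CPN-/-CRY2 (−0.47, BH-adjusted p = 0.043). Of 6 listed genes of mitochondrial stress, Dele1 and Oma1 encode the relay to eIF2alpha, and Lonp1, Hspd1, Hspe1 and Clpp encode mitochondrial proteases and chaperonins. In any comparison edgeR called 0 of the 6. The shares of all tested genes called were 24.3% in CPN-/-CRY1 and 6.66% in CPN-/-CRY2 against CPN-/-, and 16.3% between the CRY lines. At an unadjusted p under 0.05 there were 3 in CPN-/-CRY1 against CPN-/- and 0 in the others. The medians over the 6 were −0.25 in CPN-/-CRY1 and −0.16 in CPN-/-CRY2 against CPN-/-. In CPN-/-CRY1 the log2 changes were 0.12 for Dele1 and 0.19 for Oma1. They were −0.32 for Lonp1, −0.18 for Hspd1, −0.47 for Hspe1 and −0.47 for Clpp.

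The factor p53 shares Sesn2 and Gdf15 with the stress response. Of 10 tested targets of it 4 were called higher and 0 lower in each CRY line against CPN-/-, beside 11.2% of all tested genes higher in CPN-/-CRY1 and 2.58% in CPN-/-CRY2, Cdkn1a, Ccng1 and Trp53inp1 in both, Eda2r in CPN-/-CRY1 and Zmat3 in CPN-/-CRY2, with medians of 0.32 in CPN-/-CRY1 and 0.35 in CPN-/-CRY2. Cdkn1a, the cell cycle inhibitor gene for p21, was 58.2 and 58.7 CPM in CPN-/-, 123 and 117 CPM in CPN-/-CRY1, and 85.6 and 87.1 CPM in CPN-/-CRY2, with log2 changes of 1.04 (BH-adjusted p = 6.8e-04) and 0.56 (BH-adjusted p = 0.013). Eda2r, a death receptor gene, had 1.04 in CPN-/-CRY1 (BH-adjusted p = 0.010), and Trp53inp1 had 0.98 in CPN-/-CRY2 (BH-adjusted p = 0.026). Of the targets not called, Bax had −0.39 and −0.44, and Sesn1 had −0.25 in CPN-/-CRY1 and 0.23 in CPN-/-CRY2. Ccng1, Zmat3, Bax, Sesn1 and Sdf2l1 are named after their values were seen. The comparisons share the CPN-/- libraries, and Trp53 itself was not called, with log2 changes of 0.02 and −0.18.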
